A study of Rattus norvegicus with 35 samples.

Results

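The comparison described here set mammary glands of female offspring exposed before birth to bisphenol A (BPA) at 250 µg/kg/day together with genistein (BPA250+genistein) against glands of unexposed control offspring. Its members were the 5 BPA250+genistein arrays and the 5 control arrays, 10 of the 35 arrays of the series, chosen by their titles, with all 41012 non-control probes of the array in view. All animals were Sprague-Dawley females, and the abdominal left gland was taken whole at postnatal day 21. In the BPA250+genistein group the pregnant dams received BPA by gavage from gestational day 10 to 21 and ate chow with 250 mg/kg of genistein, about 5.5 mg/kg of body weight per day. Control dams were the negative controls of the labels. Genistein without BPA was not analysed here, so the comparison with control covers both agents together. Glands of offspring from other treated dams, 5 arrays for each group, were used to place the result. Those dams received BPA250 alone, the low BPA dose of 25 µg/kg/day with genistein (BPA25+genistein), or BPA250 with indole-3-carbinol (BPA250+I3C, 2000 mg/kg chow, about 45.0 mg/kg/day). The design text says that offspring came from different litters without assigning litters to samples. The p-values therefore measure the spread between these arrays.

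BPA, from which polycarbonate plastics are made, and genistein, an isoflavone of soy, both bind oestrogen receptors. In the rat before puberty, the mammary epithelium is a small tree of ducts, with luminal cells inside and myoepithelial cells outside, growing into a pad of white fat that also holds vessels, nerves, fibroblasts and immune cells. Striated muscle lies directly against the pad. A whole-gland extract mixes RNA of all of these, and in such samples fewer cells of a type and less RNA per cell cannot be told apart.

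Expression was measured as Cy3 signal and is given as log2 of the signal relative to the 75th percentile of its array, 0 being that percentile. Differences are BPA250+genistein minus control on this log2 scale, with the standard error (SE) of a limma fit to all 35 arrays. A probe counted as above background when the scanner software marked it well above background. Genes entered the fit when this held on at least 4 of the 5 arrays of some group, with 1 probe for each gene, which gave 16152 genes, 9409 of them with a RefSeq name. Signal was well above background for 31.9% to 68.9% of probes on the BPA250+genistein arrays and for 41.1% to 93.4% on the control arrays, the highest being control replicate 2. The groups shared 1 slide (slide 8, replicate 4 of each) and 4 scan days. White fat markers were present, with 15 of 15 measured members above background on at least 4 arrays in BPA250+genistein and also in control. For luminal epithelium the count was 5 of 12 in BPA250+genistein and 12 of 12 in control, and for basal and myoepithelial cells it was 7 of 11 in BPA250+genistein and 11 of 11 in control.

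No gene passed limma's test against control at an adjusted p under 0.05 (0 of 16152, 0%), and the smallest adjusted p was 0.969. At an unadjusted p under 0.05 there were 690 genes (4.27%), 328 of them higher (2.03%) and 362 lower (2.24%) in BPA250+genistein, where 807.6 would be expected by chance. The median difference of all genes was 0.05, with 55.9% of genes above 0 and 44.1% below. All 5 BPA250+genistein values lay above or below all 5 control values for 128 genes (0.792%), above for 36 (0.223%) and below for 92 (0.57%). These genes had the smallest two-sided p of 0.00794 that an exact permutation test of 5 against 5 arrays can give, and its adjusted value was 1. When arrays were weighted by their fit, 197 genes passed, 37 higher and 160 lower, and between 1 and 3 passed with slide or scan day as a block, so the count of 0 depended on the fit.

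The genes of skeletal muscle stood furthest from control. Of 35 listed muscle genes 31 were measured, 30 of these had a lower mean in BPA250+genistein than in control, and their median difference was -3.55, against 0.05 over all genes. None passed the adjusted test. At an unadjusted p under 0.05 there were 26, all lower (2.24% of all genes), and for 16 of them all 5 BPA250+genistein values lay below all 5 control values (0.57% of all genes). Of the 31 members, 19 were above background on 4 or more control arrays but on fewer BPA250+genistein arrays. Genes that enter a fit this way tend to be lower in BPA250+genistein, so the counts describe the list and carry no further weight. With no filter on dim probes, 31 of the 32 muscle genes on the array were lower, with a median of -3.20, against 28.3% of 35478 genes and a median of 0.23.

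The contractile proteins led this list. Acta1, the actin of skeletal muscle thin filaments (probe at chr19:54087858-54087917 of the rn3 build), had log2 levels of 0.36, 0.76, -0.81, -3.09 and -3.76 in BPA250+genistein and of 3.74, 3.87, 4.42, 3.17 and 7.0 in control. The groups did not overlap, the BPA250+genistein arrays spread over more than 4 log2 units, and replicates 4 and 5 were the lowest. The difference was -5.75 (SE 1.51, limma adjusted p = 0.969), and Acta1 was above background on 3 of 5 BPA250+genistein arrays and on 5 of 5 control arrays. Tnni2, the fast-fibre troponin I that holds contraction off without calcium (chr1:202849772-202849831, rn3), had levels of 4.22, 5.05, 2.82, -0.31 and -0.09 in BPA250+genistein and of 6.63, 6.24, 7.19, 6.56 and 8.95 in control. Its groups were also apart, with a difference of -4.78 (SE 1.40), and its probe was saturated on 1 control array. Myl1, a light chain of fast myosin, averaged -0.08 ± 1.71 in BPA250+genistein and 4.54 ± 1.58 in control (SD, n = 5 each), again without overlap. Its difference was -4.62 (SE 1.36), whereas a second probe for Myl1 gave -1.30. Tnni1, the slow-fibre troponin I, averaged -2.73 ± 1.22 in BPA250+genistein and 0.10 ± 0.90 in control. Only 1 BPA250+genistein array was above background for Tnni1, and its groups overlapped.

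Promoters of the 4 muscle genes described first with their levels are shown because these genes stood lower together. The sequences are the 250 bases before the RefSeq start on the GRCr8 build, 5′ to 3′ on the strand of the gene: Acta1 at chr19:68784195-68784444 (minus strand), Tnni2 at chr1:207024240-207024489 (plus), Myl1 at chr9:75907697-75907946 (minus) and Tnni1 at chr13:49781279-49781528 (plus). Capitals mark E-boxes (CANNTG, the word that MyoD family factors bind) and the CArG box (the word that serum response factor binds), searched on both strands, and no marked words overlap.
Acta1: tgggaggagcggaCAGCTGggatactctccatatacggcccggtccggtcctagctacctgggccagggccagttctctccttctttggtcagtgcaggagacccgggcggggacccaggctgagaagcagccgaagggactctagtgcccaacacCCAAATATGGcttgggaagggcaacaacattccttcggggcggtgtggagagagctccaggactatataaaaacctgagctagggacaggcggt
Tnni2: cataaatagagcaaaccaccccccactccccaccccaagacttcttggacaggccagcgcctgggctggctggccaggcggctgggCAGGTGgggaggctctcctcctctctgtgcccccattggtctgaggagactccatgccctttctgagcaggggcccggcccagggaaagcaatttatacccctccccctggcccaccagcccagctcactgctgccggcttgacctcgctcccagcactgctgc
Myl1: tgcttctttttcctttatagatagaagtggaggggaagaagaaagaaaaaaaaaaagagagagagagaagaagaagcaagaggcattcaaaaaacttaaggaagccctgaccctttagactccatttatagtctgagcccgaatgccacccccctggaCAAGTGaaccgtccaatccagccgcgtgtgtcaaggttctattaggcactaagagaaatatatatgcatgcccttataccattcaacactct
Tnni1: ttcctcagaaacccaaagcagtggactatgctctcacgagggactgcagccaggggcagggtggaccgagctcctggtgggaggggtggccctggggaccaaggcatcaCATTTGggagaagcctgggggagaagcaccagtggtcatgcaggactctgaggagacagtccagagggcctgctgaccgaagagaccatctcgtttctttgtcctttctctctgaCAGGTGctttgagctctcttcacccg

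The Acta1 window held 1 E-box and 1 CArG box, Tnni2 and Myl1 held 1 E-box each, and Tnni1 held 2. Among 33469 RefSeq promoter windows of this length, 65.5% held an E-box, 1.5% a CArG box and 3.0% a MEF2 box. Of the 29 measured muscle genes with a promoter in the RefSeq table, 25 held an E-box, 3 a CArG box (Acta1, Myh4 and Myl3) and 5 a MEF2 box. A match is a word in a sequence and was not tested as a binding site.

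The fast and the slow forms of the same protein both stood lower. Tnnt3 and Tnnc2, the fast troponins T and C, differed by -3.69 and -5.44, while Tnnt1, the slow troponin T, differed by -2.39. Myosin heavy chains gave -5.12 for Myh4, the heavy chain of the fastest fibres, -3.85 for Myh2 and -3.55 for Myh7, the slow one. The calcium pump Atp2a1 differed by -4.03, the calcium buffer parvalbumin (Pvalb) by -5.10, the muscle creatine kinase Ckm by -5.22 and the oxygen store myoglobin (Mb) by -2.17. For Ryr1, the calcium release channel, no BPA250+genistein array was well above background, whereas all 5 control arrays were, and the level was at least 3.27-fold lower in BPA250+genistein (adjusted p = 0.969). The members nearest to 0 were Neb, the thin filament ruler nebulin, at -0.51, and Tpm2, a tropomyosin that smooth muscle also makes, at 0.03. These members were named after their values were seen.

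Of 12 listed genes of myogenic factors and muscle precursors, 4 entered the fit, and the factors Myf5 and Myf6 were among those too dim. Myod1 was well above background on 0 of 5 BPA250+genistein arrays and on 4 of 5 control arrays, at least 2.33-fold lower in BPA250+genistein (adjusted p = 0.987). Myog, which acts after Myod1 in differentiation, averaged -2.62 ± 0.81 in BPA250+genistein and -0.59 ± 1.37 in control. Both had non-overlapping groups (0.57% of all genes in this direction), while Pax3, a factor of muscle precursors, differed by 0.73 and overlapped. Of the 4 genes, 2 passed the filter on dim probes through control but not through BPA250+genistein. Genes that enter this way tend to be lower in BPA250+genistein, so these values describe the list only. With no filter 4 of 10 were lower, against 28.3% of all genes, with a median of 0.02 against 0.23 over all genes.

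**Figure D1:**
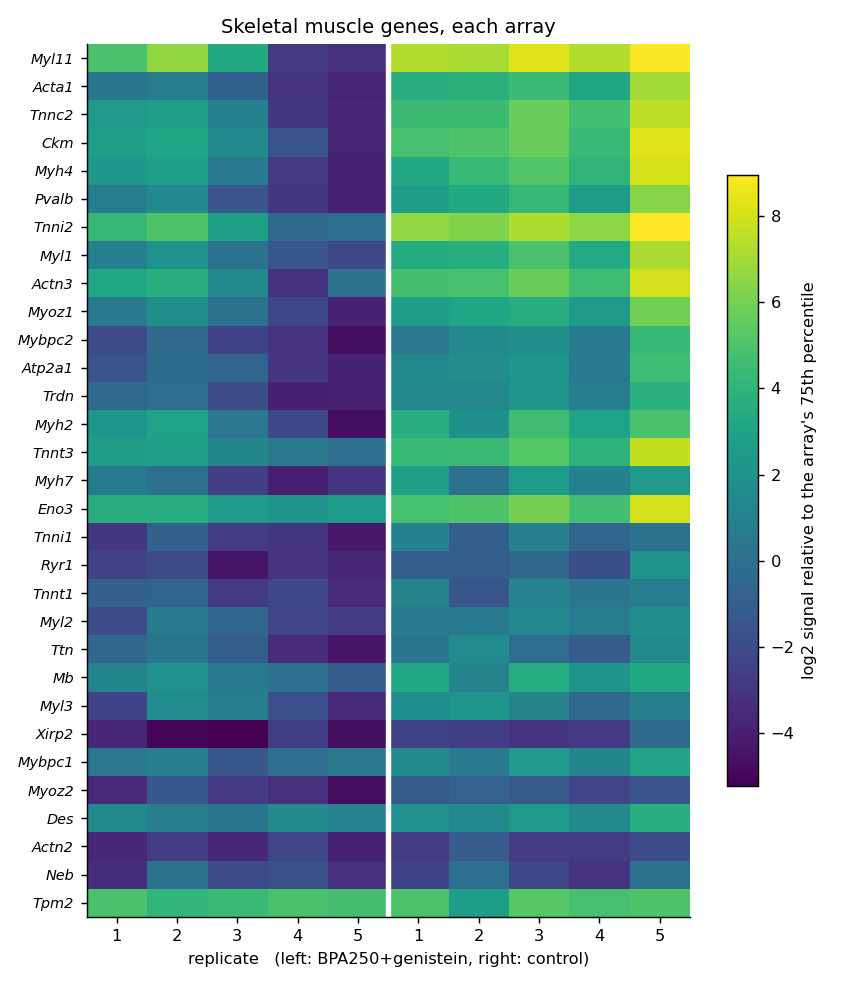
Log2 level of each of the 31 measured skeletal muscle genes (rows, sorted by difference) on each of the 10 arrays (columns), BPA250+genistein replicates 1 to 5 on the left and control replicates 1 to 5 on the right. For most genes replicates 4 and 5 of BPA250+genistein are darkest and control replicate 5 is brightest, and Tpm2 in the bottom row differs by 0.03.

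The muscle level varied widely among the 5 BPA250+genistein glands. The mean level of the list was 0.35, 1.19, -0.50, -1.82 and -2.55 on the BPA250+genistein arrays and 2.25, 2.10, 2.83, 1.75 and 4.20 on the control arrays. The highest BPA250+genistein gland was below the lowest control gland. The difference was -3.56 on slide 8, with 1 array of each group, and -4.11, -6.75, -1.90 and -1.75 on scan days 2, 3, 4 and 5. When slide was fitted as a block, the list's median difference was -2.42, and 11 members had an unadjusted p under 0.05, against 15.1% of all genes in that fit. With normexp background correction the median was -2.12, and leaving out each array in turn gave medians from -4.01 to -2.76.

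Across the 7 groups the mean muscle level, with its SD over 5 arrays, was -0.66 ± 1.53 in BPA250+genistein, -0.69 ± 2.16 in BPA25+genistein, -1.43 ± 1.48 in BPA250+I3C and -0.28 ± 2.56 in BPA25+I3C. It was 0.33 ± 1.56 in BPA250, 2.79 ± 1.15 in BPA25 and 2.63 ± 0.97 in control. In order from low to high, the 4 groups with a dietary compound and then BPA250 lay within 1 SD of their neighbours, and BPA25 and control lay close together at the top. The median of the 31 muscle genes was -3.55 in BPA250+genistein, -3.44 in BPA25+genistein, -4.21 in BPA250+I3C and -2.49 in BPA250, each minus the same 5 control arrays, so these values share their controls. How much of any other difference goes with the muscle level was not tested.

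**Figure D2:**
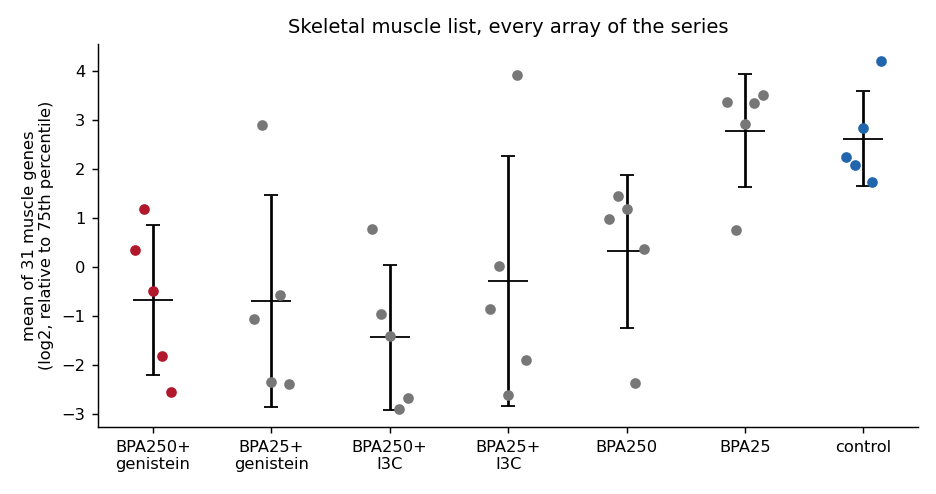
Mean log2 level of the 31 measured muscle genes on each of the 35 arrays (points), with the group mean and SD (bars). The 5 BPA250+genistein points lie between -2.55 and 1.19, all below the control points at 1.75 to 4.20, and single glands of BPA25+genistein and BPA25+I3C reach control values.

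The 12 genes with the smallest p in each direction and an absolute difference of at least 0.58 were named by rule, and none passed the adjusted test. With array weights 15 of the 51 genes named by rule passed, among them Acta1, Aox3, Hspbp1, Lrrc17 and Tcea3. Among the genes lower in BPA250+genistein, Acta1, Tnni1 and Tnni2 have been described. Actc1, the cardiac actin that immature skeletal muscle also makes, had levels of 1.14, 1.53, -0.39, -2.40 and -1.81 in BPA250+genistein and of 2.60, 3.18, 4.32, 2.48 and 6.51 in control. Its groups were apart, and 2 probes gave -4.21 and -4.11. Myot, a protein of the muscle Z disc, averaged -3.26 ± 1.33 in BPA250+genistein and 0.46 ± 1.03 in control. Atp1b4, a muscle relative of the sodium pump beta subunits, averaged -4.0 ± 0.84 in BPA250+genistein and -0.58 ± 1.30 in control. Both were above background on 1 of 5 BPA250+genistein arrays and on 5 of 5 control arrays. Fabp3, the fatty acid binding protein of heart and muscle, differed by -1.88 (SE 0.52) with overlapping groups. Bex1, a small adaptor protein found in nerve and regenerating muscle, differed by -1.77 (SE 0.47), its groups apart.

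Hspbp1, Lrrc17, Tcea3 and B4galt4 completed the lower set. Hspbp1, a co-chaperone that regulates Hsp70 proteins, averaged -1.40 ± 0.49 in BPA250+genistein and -0.48 ± 0.10 in control, a difference of -0.92 (SE 0.25). Lrrc17, a secreted leucine-rich repeat protein, had -0.65, -1.03, -1.21, -0.19 and -1.20 in BPA250+genistein and 0.27, -0.13, 0.30, -0.06 and -0.04 in control. Its groups did not overlap, although the highest BPA250+genistein gland lay just below the lowest control gland. Tcea3, of the TFIIS family of transcription elongation factors, differed by -1.54 (SE 0.43) and B4galt4, a galactosyltransferase, by -0.78 (SE 0.23). Against BPA250 alone, Hspbp1 stood at -0.93, Lrrc17 at -0.90, Tcea3 at -1.26 and B4galt4 at -0.54. In BPA250 minus the same controls the values in that order were 0.01, -0.02, -0.28 and -0.24. In BPA25+genistein minus control they were -0.31, -0.31, -0.85 and -0.57. The genes were picked for low values on the same BPA250+genistein arrays, so their low values against BPA250 carry no further weight.

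Among the genes higher in BPA250+genistein, Aox3, an aldehyde oxidase, came first. Its levels were 0.38, -0.74, 0.39, -0.16 and 0.89 in BPA250+genistein and -1.41, -1.0, -1.81, -1.0 and -0.81 in control. All 5 BPA250+genistein glands lay above all control glands, and the difference was 1.36 (SE 0.36, limma adjusted p = 0.969). Ccdc120, a centrosomal coiled-coil protein, had 0.98, 0.42, 0.64, 0.22 and 0.60 in BPA250+genistein and -0.24, -0.32, -0.01, -1.14 and -0.29 in control, also without overlap. Kcng2, a potassium channel subunit, was the third gene of this direction whose groups were apart, with a difference of 1.47 (SE 0.52). The remaining 9 genes overlapped between groups.

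Several of these have known roles in fat, immune or nerve cells. Sfrp5, a secreted Wnt inhibitor made by adipocytes, differed by 0.99 (SE 0.35), and Abca1, the pump that exports cholesterol from cells, by 0.92 (SE 0.31). Tnfsf13b, the B cell survival factor BAFF, differed by 1.06 (SE 0.34). Minus the same controls, Tnfsf13b in the other treated groups ranged from 0.44 in BPA250+I3C to 1.12 in BPA250. Mrgprb2, a receptor known from mouse mast cells, differed by 1.70 (SE 0.56) but was above background on 2 of 5 BPA250+genistein arrays and on 1 of 5 control arrays. Its values in the other treated groups, minus the same controls, ranged from 0.08 in BPA25 to 2.15 in BPA25+genistein. The p53-induced stress gene Tp53inp1 differed by 0.96 (SE 0.29). Hoxa5, a homeobox factor of body patterning, averaged 4.18 ± 0.67 in BPA250+genistein and 2.86 ± 0.55 in control, and its second probe gave 0.58 against 1.33. Zc3h8, a zinc finger protein, differed by 0.68 (SE 0.24), and the pseudogene Nono-ps12 by 1.80 (SE 0.59).

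**Figure D3:**
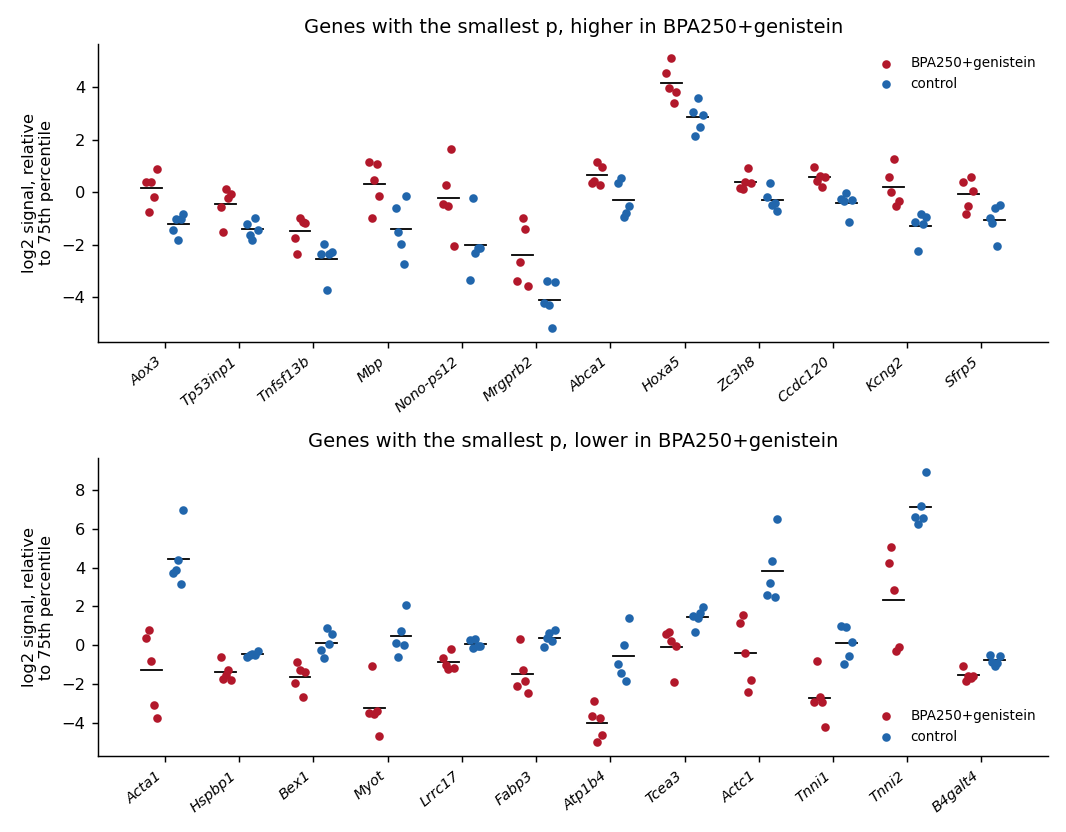
Log2 level on each array (points) and group mean (lines) of the genes with the smallest p, higher ones above and lower ones below, BPA250+genistein on the left and control on the right of each pair. Muscle genes such as Acta1 have the widest gap and the widest spread, and Hspbp1 has tight control values (SD 0.10).

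Myelin genes of Schwann cells included the fourth gene of the higher set. Mbp, a structural protein of myelin, had 1.16, -0.98, 0.48, 1.09 and -0.15 in BPA250+genistein and -0.60, -1.52, -1.95, -2.71 and -0.14 in control. The groups overlapped, the difference was 1.70 (SE 0.55), and a second probe gave 1.34. Prx, which anchors myelin in peripheral nerve, differed by 1.25 (SE 0.48), also with an unadjusted p under 0.05. Of 10 measured Schwann cell genes 7 were higher and 3 lower, with a median of 0.20 against 0.05 over all genes (-0.13 against -0.27 after centring on the median). The Schwann cell factor Sox10 stood at 0.28. Within scan days 2, 3, 4 and 5 the mean difference of the list was -0.03, -0.19, 0.97 and 0.89.

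Most luminal epithelial genes measured also stood below control. Of 12 measured members 10 were lower and 2 higher (44.1% of all genes lower), with a median of -0.85, and 3 had an unadjusted p under 0.05, all lower (2.24% of all genes). Of the 12, 7 passed the filter on dim probes through control but not through BPA250+genistein, so these counts describe the list only. With no filter 10 of 15 were lower, with a median of -0.43 against 0.23 over all genes, and 2 had an unadjusted p under 0.05. Epcam, the epithelial adhesion molecule, had -1.34, -0.98, 0.75, -1.95 and 0.21 in BPA250+genistein and 2.21, 0.29, 0.43, 0.95 and 0.53 in control. Replicate 3 of BPA250+genistein lay inside the control range, and the difference was -1.54 (SE 0.63). The tight junction protein Cldn4 differed by -1.43 (SE 0.59), and keratins Krt7 and Krt8 of simple epithelium by -1.31 (SE 0.58) and -1.0 (SE 0.58). Each of these 4 was above background on 2 or 3 BPA250+genistein arrays and on 5 control arrays. With no filter on dim probes another probe stood for Cldn4, and it gave 0.04. Krt18, partner of Krt8, was above background on all 10 arrays and differed by -0.67. Cldn3 stood at 0.79 in the other direction. On scan day 5 the list mean was 0.14 higher in BPA250+genistein, and with normexp background correction the median was -0.18. The low luminal median was not particular to BPA250+genistein. Minus the same 5 control arrays, the median of the 12 luminal genes was below 0 in every other treated group too. It was -0.54 in BPA25+genistein, and the other groups ranged from -0.33 in BPA250 to -1.56 in BPA25+I3C. These values share their controls.

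Among basal and myoepithelial genes 7 of 11 were higher (55.9% of all genes) and 4 lower, from -1.28 to 1.01, with a median of 0.17. Of the 11, 4 passed the filter on dim probes through control but not through BPA250+genistein. With no filter 4 of 13 were lower, against 28.3% of all genes, with a median of 0.20 against 0.23 over all genes. Krt5 and Tp63 stood at -1.28 and -1.13, and Myh11 and Itgb4 at 0.72 and 0.77. Of milk genes, Csn2 (beta-casein) differed by 0.71 (SE 0.49) and Csn3 (kappa-casein) by -1.25, with 1 of 5 BPA250+genistein arrays above background for Csn3 and 4 of 5 control arrays.

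Genes of the receptors that BPA, genistein and dioxin-like compounds bind could not be compared. Esr1, Esr2, Pgr, Gper1, Ahr and Cyp1a1 stayed below the filter on dim probes. Of 20 listed oestrogen receptor and oestrogen-responsive genes 9 were measured, 4 higher and 5 lower, with a median of -0.04. Of the 9, 5 passed the filter on dim probes through control but not through BPA250+genistein. With no filter 6 of 18 were lower, against 28.3% of all genes, with a median of 0.14 against 0.23 over all genes. Areg, an oestrogen-induced growth factor of ductal outgrowth, differed by -1.08 with non-overlapping groups (0.57% of all genes in this direction). It was above background on 2 of 5 BPA250+genistein arrays and on 5 of 5 control arrays. Prlr, the prolactin receptor, stood at -0.04. Cyp1b1, a steroid-metabolising target of Ahr, differed by 0.06 (SE 0.44), and its second probe gave 0.27. The difference of Cyp1b1 was -0.13 after quantile normalization, where the median of all genes was 0.03. Enzymes of DNA methylation and histone modification were close to control, from -0.21 to 0.38 over 14 measured genes.

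Cell cycle genes were on the lower side. Of 20 measured mitosis genes 20 were lower and 0 higher (44.1% of all genes lower), with a median of -0.50, and none had an unadjusted p under 0.05. Of the 20, 5 passed the filter on dim probes through control but not through BPA250+genistein. With no filter 22 of 22 were lower, against 28.3% of all genes. Ccnb1 (cyclin B1) had a difference of -0.71 (SE 0.36), Birc5 (survivin) of -0.75 (SE 0.38), Aurka (Aurora kinase A) of -0.95 (SE 0.48) and Ccna2 (cyclin A2) of -0.68 (SE 0.35). When slide was fitted as a block, the median was -0.92 and 14 members had an unadjusted p under 0.05, against 15.1% of all genes in that fit. Leaving out control replicate 4 gave a median of -0.33, and leaving out control replicate 2 gave -0.77. Ki-67 (Mki67) stood at -0.47. Birc5 levels were 0.41, 0.76, 0.36, 0.74 and 0.65 in BPA250+genistein and 1.09, 0.45, 1.56, 2.02 and 1.57 in control. Of the control arrays, replicate 2 lay inside the BPA250+genistein range. Within scan days the mean difference of the mitosis list was -0.81, -0.81 and -0.21 on days 2, 3 and 4 and 0.09 on day 5. A low mitosis median was not particular to BPA250+genistein. Minus the same control arrays it was -0.74 in BPA25+I3C, -0.22 in BPA25+genistein and -0.19 in BPA250, but 0.16 in BPA25 and 0.22 in BPA250+I3C. These values share their controls. Of 15 DNA replication genes, 3 of which passed the filter through control but not through BPA250+genistein, 14 were lower and 1 higher, with a median of -0.27. Without BPA250+genistein replicate 5 the median was -0.09, and the mean difference of the list was -0.21, -0.94, 0.21 and -0.13 on scan days 2, 3, 4 and 5. In this list Mcm6 (a subunit of the replicative helicase) stood at -0.78 (SE 0.38), Ccne1 (cyclin E1) at -0.80 (SE 0.49) and the helicase subunit Mcm7 at -0.46. Probes of Rrm1, the large subunit of ribonucleotide reductase, differed in sign (-0.27, -0.21 and 0.49).

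**Figure D4:**
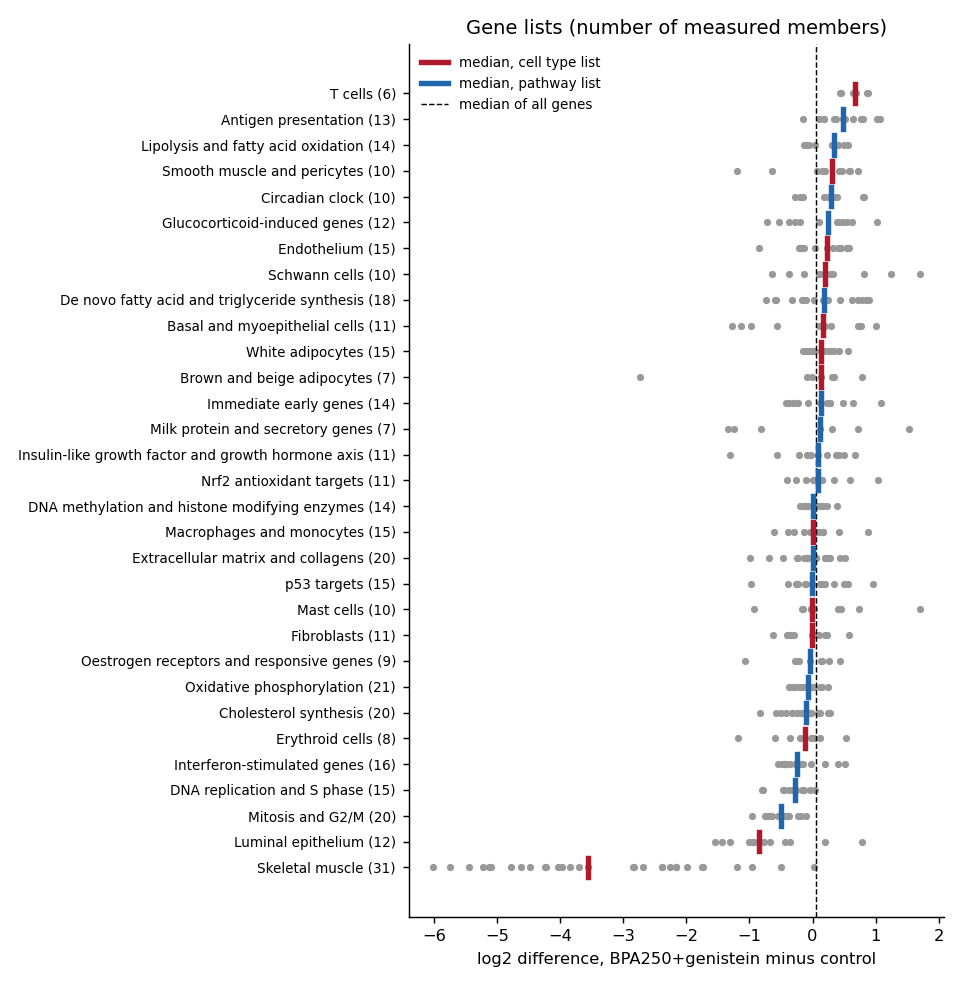
Log2 difference (BPA250+genistein minus control) of each measured gene (grey points) in every list with at least 5 measured members, with the list median (red for cell types, blue for pathways) and the median of all genes (dashed, 0.05). Skeletal muscle lies far left (median -3.55), luminal epithelium and mitosis follow (-0.85 and -0.50), and T cells lie furthest right (0.67).

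Immune genes lay on both sides. Of 13 antigen presentation genes 12 were higher and 1 lower (55.9% of all genes higher), with a median of 0.49 and none at an unadjusted p under 0.05. RT1-Bb, a class II chain, differed by 1.06 (SE 0.74), but its second probe gave -0.48. The class II chaperone Cd74 differed by 1.03 (SE 0.80), the class II chain RT1-Db1 by 0.80 (SE 0.65) and the class I loading factor Tapbp by 0.49 (SE 0.44). Control replicate 2 was the lowest control array for all 4, and without it the list's median was 0.11 and that of all genes -0.16. Relative to all genes the list thus stood at 0.27 without that array and at 0.44 with it, and at 0.23 without BPA250+genistein replicate 5. All 6 measured T cell genes of 20 listed were higher (55.9% of all genes), with a median of 0.67 and none at an unadjusted p under 0.05. With no filter on dim probes 1 of 18 T cell genes was lower, against 28.3% of all genes, with a median of 0.58 against 0.23 over all genes. In the main fit the T cell median was 0.67 as given. With the filter, the T cell median was 0.34 without control replicate 5, 0.35 without BPA250+genistein replicate 1 and 1.01 without control replicate 3. The T cell receptor chains Cd3d, Cd3e and Cd3g stood at 0.88, 0.64 and 0.69 and the co-receptor Cd8b at 0.86, with SEs of 0.60 to 1.07. Of 17 listed B and plasma cell genes 2 were measured, Cd79b and Fcer2, which stood at 1.87 and 1.11, neither at an unadjusted p under 0.05. The mean of these 2 ran from -3.85 to 0.36 on the control arrays and from -1.21 to 2.02 on the BPA250+genistein arrays.

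Interferon-stimulated genes were lower in 13 of 16 measured members (44.1% of all genes), with a median of -0.25. Of the 16, 3 passed the filter on dim probes through control but not through BPA250+genistein. Leaving out single arrays gave medians from -0.46 (without control replicate 2) to -0.09 (without control replicate 4), and the mean difference of the list was 0.29 on scan day 4. The RNA sensors Rig1 (the RefSeq symbol for Ddx58) and Ifih1 stood at -0.54 (SE 0.27) and -0.41 (SE 0.32), and the antiviral effectors Isg15 and Oas1a at -0.45 (SE 0.40) and -0.27 (SE 0.27). Of 13 listed neutrophil genes 4 were measured, and these 4 were lower (44.1% of all genes), from -0.64 for Lcn2 to -0.22 for Mpo. Of the 4, 1 passed the filter on dim probes through control but not through BPA250+genistein. With no filter 4 of 12 neutrophil genes were lower, against 28.3% of all genes, with a median of 0.22 against 0.23 over all genes. Macrophage genes had a median of 0.01 over 15 members.

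**Figure D5:**
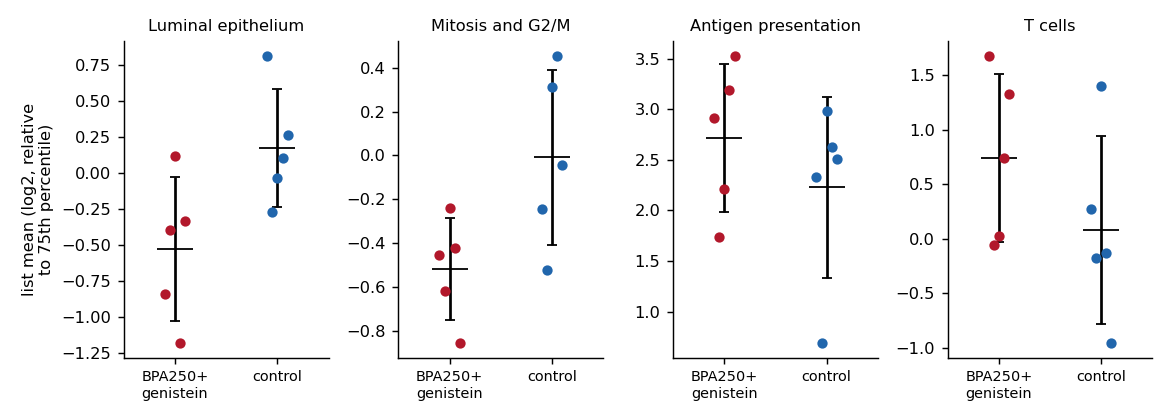
List mean on each array (points) with group mean and SD (bars) for luminal epithelium, mitosis, antigen presentation and T cells, BPA250+genistein left and control right. Groups overlap in every panel, and the lowest antigen presentation value (0.69) is control replicate 2.

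Genes of fat cells and matrix had medians on both sides of 0. White adipocyte genes had a median of 0.14, with 9 of 15 higher (55.9% of all genes) and 6 lower. Lipolysis and fatty acid oxidation genes were higher in 10 of 14 (55.9% of all genes), with a median of 0.33, led by the lipid droplet coat protein Plin1 at 0.57. None of the 14 had an unadjusted p under 0.05. With no filter 4 of 17 lipolysis genes were lower, against 28.3% of all genes, with a median of 0.36 against 0.23. Genes of fatty acid and triglyceride synthesis were higher in 11 of 18 (55.9% of all genes), with a median of 0.18 and a range of -0.74 to 0.90. Cholesterol synthesis genes were lower in 15 of 20 (44.1% of all genes), with a median of -0.11. With no filter 15 of 22 were lower, against 28.3% of all genes. Among brown fat genes Cox8b, a cytochrome oxidase subunit that muscle also makes, averaged 1.5 ± 1.02 in BPA250+genistein and 4.24 ± 1.03 in control without overlap. Ucp1, the uncoupling protein that defines brown fat, stood at 0.79. Collagen and matrix genes had a median of 0.01.

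Set against BPA250 alone, from which the group differs in genistein, no gene passed (0 of 16152). At an unadjusted p under 0.05 there were 680 genes (4.21%), 412 higher (2.55%) and 268 lower (1.66%), and the smallest limma adjusted p was 0.811. The muscle list had a median of -0.73 with 26 of 31 lower and 0 at an unadjusted p under 0.05. T cell genes were higher in 6 of 6 with a median of 1.45. Cd3e was the T cell gene at an unadjusted p under 0.05, with 1.85. Schwann cell genes were higher in 7 of 10 and lower in 3, with a median of 0.54. An unadjusted p under 0.05 was reached by 4 (4.21% of all genes), among them Mbp (1.56), Prx (1.58) and Cnp, an enzyme of myelin (0.62). Mbp had been picked for its difference from control on the same BPA250+genistein arrays. Krt5 stood at -1.29. The median of all genes was 0.07.

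Against BPA25+genistein, which differs in BPA dose, 0 genes passed and 318 had an unadjusted p under 0.05 (1.97%), 160 higher (0.991%) and 158 lower (0.978%). The muscle median was 0.00 with 15 of 31 lower. Mitosis genes were lower in 18 of 20, with a median of -0.30, and Prx stood at 1.78. Against BPA250+I3C, in which another dietary compound accompanied the same BPA dose, 0 genes passed, but 1921 had an unadjusted p under 0.05 (11.9%), 640 higher (3.96%) and 1281 lower (7.93%). The smallest limma adjusted p was 0.0559 there, and the median of all genes was -0.14. Sfrp5 was among the genes that shared this smallest adjusted p, with a difference of 1.86 (SE 0.35). Mitosis genes were lower in 19 of 20 with a median of -0.79, 8 of them at an unadjusted p under 0.05 (7.93% of all genes), while muscle genes were higher in 31 of 31 with a median of 0.73. Cholesterol synthesis genes were lower in 19 of 20 with a median of -1.02 and 11 at an unadjusted p under 0.05. Fatty acid and triglyceride synthesis genes were lower in 14 of 18 with a median of -0.85, and oxidative phosphorylation genes in 21 of 21 with a median of -0.60. This count of 0 depended on the setting, reaching 2253 with array weights and 53 without BPA250+genistein replicate 2.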

How the data were processed

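Single-colour (Cy3) Agilent 4x44K whole rat genome arrays were hybridised with RNA of the whole abdominal gland, 1 array a sample. Per the file headers, the authors' scans were read with Agilent Feature Extraction 9.5.3.1, and the deposited values used are processed signal intensities, already background-corrected, with flags (outlier, saturated, well above background) that the deposited files give as 0 or 1. The deposited value table holds log2 values whose centring is not given in the sources used here, and it served as an alternative. Probe positions are on the rn3 build of the file headers.

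Each array was expressed as log2 of the intensity minus the 75th percentile of its non-control probes. Outlier spots were set missing, spots of a probe averaged, and probes kept where well above background on at least 4 of 5 arrays of a group. The brightest probe stood for its gene. Names came from RefSeq (GRCr8): 21300 of 41012 probes matched, and the others kept the array's name. Limma 3.58.1 in R 4.3.3 fitted all 35 arrays with 7 group means, with Benjamini-Hochberg adjustment over 16152 genes and a threshold of 0.05. Exact permutation tests were two-sided. The fit was tested on simulated data.

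The text names the 12 genes of smallest p in each direction with a RefSeq name and an absolute log2 difference of at least 0.58, 8 genes of receptors, their targets and casein, and up to 4 members of smallest p in each list whose median was at least 0.3 from that of all genes. The members and lists were chosen with earlier results of these data known. All other genes named were chosen after their values were seen. The number of arrays limits the precision. Alternatives covered scaling, background correction, filter, probe choice, slide, scan day, array weights and left-out arrays. Python 3.11.15 with matplotlib 3.10.9 drew the figures. Results for some genes are not reported here.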

Additional observations from a re-analysis of the deposited data

Results flagged for a closer look

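Dixon's ratio for a lone high or low array was above its 95% critical value in 8 of 120 groups of 5 arrays, and chance flags about 1 in 20 groups. In the BPA250+genistein group, Tcea3 was -1.89 on 1 array, against -0.03 for the nearest of the others. In control, Tnfsf13b was -3.71 (nearest -2.35), Ccdc120 was -1.14 (nearest -0.32), Kcng2 was -2.24 (nearest -1.20), and Aurka was -0.20 (nearest -1.54). Control replicate 2 stood apart in Tapbp, at -1.31 (nearest 0.31), in the mean of the antigen presentation list, at 0.69 (nearest 2.33), and in the percent of probes well above background, at 93.4 (nearest 47.9). Without that array the antigen presentation median was 0.11 where all genes had -0.16, and with it 0.49 where all genes had 0.05.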

How the results depend on the processing

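Of the 51 named genes, 47 kept their direction of difference from control under every alternative run for them and 4 did not. There were 28 alternatives, of which Mrgprb2 had no value with the filter on the 2 groups. The reversed values were those of Ifih1 with normexp background correction (0.033), Cldn4 with no filter on dim probes (0.041), Cd3e in the authors' deposited table (-0.044), and Cyp1b1. The reversed Cldn4 value came from another probe of the gene, picked when the filter was dropped. Cyp1b1 gave -0.13 with quantile normalization, -0.27 after centring on the median, -0.11 in the authors' deposited table, -0.078 with slide as a random block, -0.20 with scan day as a block, and from -0.16 to 0.45 when single arrays were left out. The Schwann cell median was -0.13 after centring on the median. Causes were not tested.

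The count of 0 genes against control became 2 with only the 2 groups fitted, 1 with slide as a fixed block, 3 with slide as a random block, 1 with scan day as a block, 197 with array weights and 1 without slide 3. Leaving out single arrays gave 0 to 0. Against BPA250, 1 gene passed in the authors' deposited table, 4 and 76 with slide as a fixed and random block, and 225 with array weights, and leaving out single arrays gave 0 to 0. Against BPA25+genistein, 2 and 6 passed with slide as a fixed and random block and 2 with array weights, with 0 to 1 when single arrays were left out (1 without BPA25+genistein replicate 4). Against BPA250+I3C, 15 passed with quantile normalization, 236 with the percentile over probes above background on all arrays, 18 in the authors' deposited table, 2 with the filter on the 2 groups, 3 with every probe, 1878 and 1831 with slide as a fixed and random block, 149 with scan day, 2253 with array weights, 2 with an intensity trend, 1094 without slide 3 and 370 without slides 3, 4 and 5. Leaving out single arrays there gave 0 to 53 (53 without BPA250+genistein replicate 2, 9 and 3 without BPA250+I3C replicates 3 and 1).

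Replicate numbers are shared between groups. The correlation of same-numbered deviations was over 0.1 for 4 of 5 numbers, from -0.24 to 0.67, and number 3 lay below, so the numbers were not taken to pair the glands, which needs all 5 above. Arrays numbered 1, 2, 4 and 5 shared a scan day between the groups, and those numbered 3 did not. With the replicate block, 0 genes passed against control (1236 at an unadjusted p under 0.05) and 236 against BPA250+I3C.

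Slides separated the groups except for slide 8, and the correlation within slides was 0.584, so slide and group can be told apart only in part. Muscle, luminal and receptor genes near background limit what the arrays can measure.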
